A study of Mus musculus with 9 samples.

Results

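The transcriptome of mouse embryonic fibroblasts (MEFs) was compared with that of pluripotent stem cell cultures, and the genes that set fibroblasts apart from both the naïve and the primed state were described. The comparison used every library of the RNA-seq experiment, 1 of MEFs and 8 of pluripotent cells, which make 9 in all. Levels are CPM, the counts of a gene scaled to a common library total and between libraries with TMM factors, and are not per length, so they compare 1 gene between libraries and not genes with each other. A gene was called MEF-specific when it reached 5 CPM in the MEF library and at least 4 times the level of the highest of the 8 pluripotent libraries, and pluripotent-specific when each of the 8 reached 5 CPM and the lowest of them at least 4 times the MEF level. Of 16427 genes measured, with at least 1 CPM in at least 1 library, 363 were MEF-specific (2.21%) and 364 were pluripotent-specific (2.22%), and these shares are the background for the counts of gene groups.

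The naïve cells were mouse embryonic stem cells (mESCs) of the OG2 line, from C57BL6 × CBA mice with a GFP reporter driven by the distal promoter of *Oct4*, kept in serum and LIF (S/L medium). The primed cells were epiblast-like stem cells (mEpiSCs) that had been converted from these mESCs with bFGF and Activin A (F/A medium). Both states were sampled at passage 5 (P5) and passage 15 (P15), with 2 libraries for each state and passage, given as biological repeats. The MEF library carries the strain label C57 × CBA and the status of a somatic cell, and its passage, embryonic age and treatment are not given in the sources used here. All 8 pluripotent cultures grew on MEF feeders inactivated with mitomycin C, so each of those libraries could also hold fibroblast RNA, and RNA of feeder cells and RNA of the pluripotent cells themselves cannot be told apart in bulk samples. Likewise, fewer cells of a type and less RNA per cell cannot be told apart. The cells of a state derive from 1 line, and the MEFs are 1 library, so no variance of MEF expression was available and the folds between MEFs and pluripotent cells carry no test. Total counts were 25646547 in the MEF library and 14378051 to 20985136 in the other 8.

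Fibroblasts are the mesenchymal cells that build connective tissue. They secrete fibrillar collagens, elastic fibre proteins and proteoglycans into the extracellular matrix, sense platelet-derived growth factors through *Pdgfra* and *Pdgfrb*, and keep a record of their position in the embryo in the combination of Hox genes they transcribe. Pluripotent cells grow as epithelial colonies held together by E-cadherin and are maintained by a transcription factor network around Oct4 (*Pou5f1*), *Sox2* and *Nanog*. Exchange of the mesenchymal for the epithelial programme is one of the steps by which fibroblasts are reprogrammed to pluripotency, and MEFs are also the standard feeder layer for such cultures.

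The labelled cell types were first checked against their defining markers. *Pou5f1* had 1 count in the MEF library against 211 to 760.3 CPM in the 8 pluripotent libraries. *Sall4*, a zinc finger partner of Oct4, had 0 counts in MEFs against 154 to 197 CPM. *Col1a1*, which encodes a chain of type I collagen, stood at 26126 CPM in MEFs against 752 to 4386 CPM in the pluripotent libraries. *Pdgfrb* stood at 582 CPM in MEFs against 43.4 to 79.3 in the pluripotent libraries. *Thy1*, a surface antigen used to sort fibroblasts, was 630.0 CPM in MEFs against 105 to 319 CPM. *Prrx1*, a homeobox gene of limb and body wall mesenchyme, was 662 CPM in MEFs, 3.76 times the highest pluripotent library. The fibroblast and pluripotency markers named above therefore separated the MEF library from the other 8 as labelled. These fibroblast markers were present in all 8 pluripotent libraries as well. Not every fibroblast marker separated them. Of the 30 listed, 21 were at least 2-fold higher in MEFs than in all 8 libraries. *Dcn*, *Lum*, *Mmp2* and *Timp1* were higher in some or all of the pluripotent libraries than in MEFs. *Timp1* had 123 CPM in MEFs against 124 to 274 CPM.

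Of 30 fibroblast markers, all 30 were measured, 10 were MEF-specific and none was pluripotent-specific. Of 20 genes of the pluripotency network, 16 were pluripotent-specific and none was MEF-specific. On the log2 scale of the MEF level minus the mean of the 8 libraries, the median was 2.44 for the fibroblast markers and -8.26 for the pluripotency genes, beside -0.07 over all measured genes. With library sizes alone in place of TMM factors the median of all genes was -0.20, a shift of -0.14, and list medians are to be read beside that of all genes. Of each list the most abundant members are named, and other members, such as *Col8a2*, *Dcn*, *Meox1*, *Igf1*, *Otx2* or *Slc2a3*, were chosen after their values were seen.

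**Figure D1:**
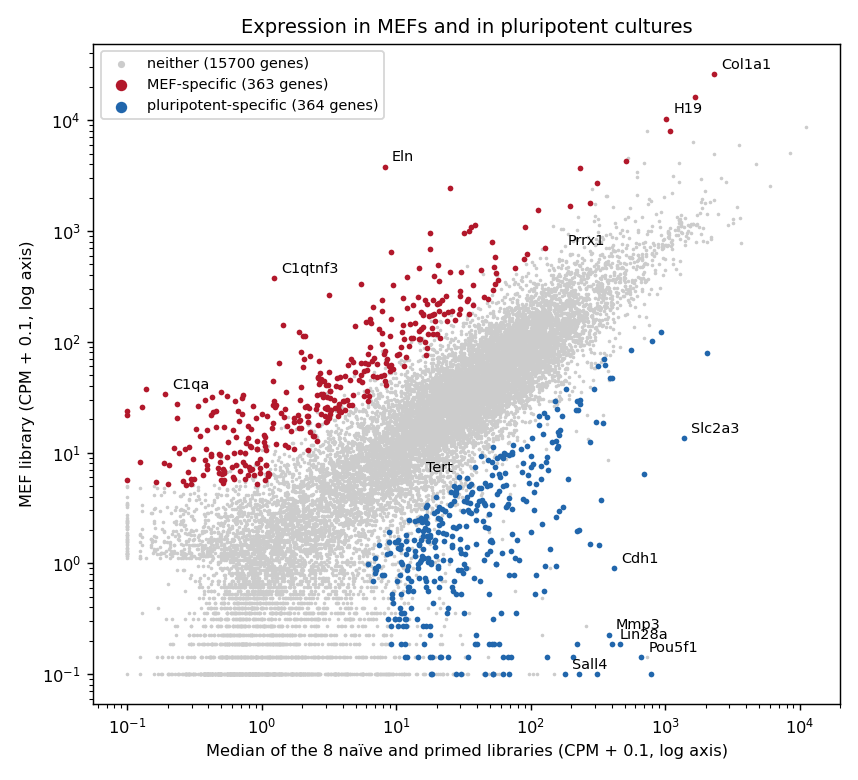
Each point is 1 of the 16427 measured genes, with the median CPM of the 8 naïve and primed libraries on the horizontal axis and the CPM of the single MEF library on the vertical axis, both with 0.1 added and on log axes. The 363 MEF-specific genes (red) lie above the cloud and the 364 pluripotent-specific genes (blue) below it, and many blue genes lie at the bottom edge because the MEF library held no or almost no reads of them.

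The 363 MEF-specific genes supplied 11.9% of all normalised counts in MEFs and 0.695% to 1.67% in the 8 pluripotent libraries. The 364 pluripotent-specific genes supplied 3.10% to 3.37% in the pluripotent libraries and 0.195% in MEFs. The fibroblast class was thus the more abundant, while the pluripotent class had the larger folds. The median fold over the nearest pluripotent library was 6.52 among MEF-specific genes, with 107 genes at 10-fold or more and 5 at 100-fold or more. Among pluripotent-specific genes the median fold was 9.11, with 173 genes at 10-fold or more and 30 at 100-fold or more, where MEF levels under 3 counts were set to 3 counts, which is 0.128 CPM. Such floors and the intervals given below cover counting error only. The MEF library held 0 counts for 13 pluripotent-specific genes and 1 to 3 counts for a further 31. With a 2-fold in place of the 4-fold requirement, 1105 genes (6.73%) were higher in MEFs than in all 8 libraries and 882 (5.37%) were lower than in all 8.

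The number called depended on which state the MEFs were set against. Against the 4 naïve libraries alone, 716 genes met the MEF-specific rule, and against the 4 primed libraries alone 482 did. In the other direction, 901 genes met the pluripotent-specific rule in naïve cells and 647 in primed cells. The classes described here hold only the genes that met the rule in both states and at both passages.

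Protein-coding genes made up 341 of the 363 MEF-specific and 333 of the 364 pluripotent-specific genes, beside 88.7% of measured genes. Among MEF-specific genes 10 were lincRNAs, including *H19* and *Xist*, which is 2.75% of the class beside 2.13% of all measured genes. Among pluripotent-specific genes 23 were processed pseudogenes, 6.32% of the class beside 3.52% of all measured genes. *Gm8730*, a processed pseudogene, had 423 to 851 CPM in the pluripotent libraries and 6.29 CPM in MEFs, and *Rps3a2*, a copy of a ribosomal protein gene, had 54.2 to 91.5 and 0.978 CPM. Reads of such copies can be shared with their parent genes, so the counts of these 23 entries are uncertain.

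The 10 MEF-specific genes with the largest fold among those of at least 50 CPM in MEFs were matrix or matrix-associated genes for the most part. *Eln* (ENSMUSG00000029675, chr5:134702593-134747323, minus strand, GRCm38), which encodes tropoelastin, the core of elastic fibres, led the list. It had 3787 CPM in MEFs against 2.44 and 1.68 CPM in naïve P5, 2.78 and 3.77 in primed P5, 17.8 and 16.1 in naïve P15 and 14.2 and 12.4 in primed P15 cultures. All 8 pluripotent libraries lay at least 212-fold below MEFs, and within them the P15 cultures of both states lay above the P5 cultures. *C1qtnf3* (ENSMUSG00000058914, chr15:10952332-10980150, plus strand), a secreted protein of the C1q and TNF superfamily, had 373 CPM in MEFs and 0 to 2.95 CPM in the pluripotent libraries, a 127-fold gap to the nearest.

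*Fmod* and *Abi3bp*, both of the extracellular matrix, had 332 and 69.8 CPM in MEFs against 1.04 to 7.29 and 1.69 to 2.77 CPM. *Fbn2*, the fibrillin of embryonic microfibrils, stood at 1078 CPM in MEFs against 22.03 to 43.8 CPM. *Ccn3*, a matricellular protein of the CCN family, had 968 CPM in MEFs and 15.1 to 25.3 CPM in the pluripotent libraries. *Tnmd*, or tenomodulin, a marker of the tendon lineage, had 141 CPM in MEFs, and its highest pluripotent libraries were the naïve P15 pair with 5.16 and 5.76 CPM. *Cpxm2*, a carboxypeptidase-like secreted protein, *Egfl6*, an EGF-like matrix protein, and *Rtl3*, a gene derived from a retrotransposon Gag, completed the 10 with folds of 39.2, 24.9 and 33.1. The primed P5 pair was at or near 0 for *C1qtnf3*, *Rtl3* and *Tnmd*, with 0.0994 and 0.111 CPM for *Tnmd*.

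**Figure D2:**
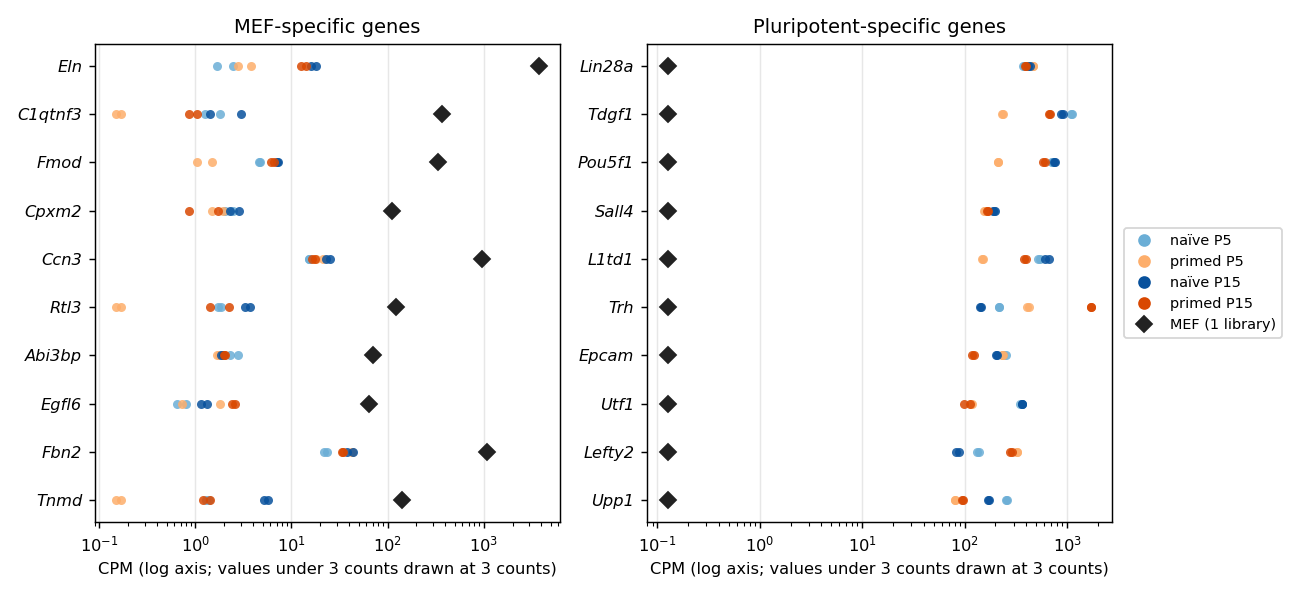
CPM on log axes of the 10 leading MEF-specific genes (left) and the 10 leading pluripotent-specific genes (right), with 1 circle for each of the 8 naïve and primed libraries and a diamond for the single MEF library, and with values under 3 counts drawn at 3 counts. No circle overlaps the MEF value in any of the 20 genes, and for all 10 genes on the right the MEF diamond lies at that limit.

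Promoter sequences are shown for 2 leading genes of each class, to give the sequence context in which each is transcribed in one cell type and nearly silent in the other. Each is the 250 bases before the transcription start in RefSeq on GRCm38.p6, written 5′ to 3′ on the strand of the gene, with CpG dinucleotides in capitals. The windows are chr15:10952082-10952331, plus strand, for *C1qtnf3*, chr7:132154742-132154991, minus strand, for *Cpxm2*, chr4:134018817-134019066, minus strand, for *Lin28a*, and chr9:110946159-110946408, minus strand, for *Tdgf1*.
C1qtnf3: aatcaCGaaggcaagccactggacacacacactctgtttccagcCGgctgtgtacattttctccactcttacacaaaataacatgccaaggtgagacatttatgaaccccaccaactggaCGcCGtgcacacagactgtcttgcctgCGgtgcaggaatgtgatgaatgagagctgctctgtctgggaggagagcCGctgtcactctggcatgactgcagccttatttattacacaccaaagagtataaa
Cpxm2: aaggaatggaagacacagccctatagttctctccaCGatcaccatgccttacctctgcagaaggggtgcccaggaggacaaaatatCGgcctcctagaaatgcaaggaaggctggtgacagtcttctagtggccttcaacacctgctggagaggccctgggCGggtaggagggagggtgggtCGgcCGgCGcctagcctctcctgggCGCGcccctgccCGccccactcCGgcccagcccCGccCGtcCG
Lin28a: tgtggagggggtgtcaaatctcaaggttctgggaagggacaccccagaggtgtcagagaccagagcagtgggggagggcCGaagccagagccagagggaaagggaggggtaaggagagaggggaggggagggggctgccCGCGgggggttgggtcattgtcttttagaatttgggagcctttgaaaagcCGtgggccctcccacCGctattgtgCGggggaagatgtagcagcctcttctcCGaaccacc
Tdgf1: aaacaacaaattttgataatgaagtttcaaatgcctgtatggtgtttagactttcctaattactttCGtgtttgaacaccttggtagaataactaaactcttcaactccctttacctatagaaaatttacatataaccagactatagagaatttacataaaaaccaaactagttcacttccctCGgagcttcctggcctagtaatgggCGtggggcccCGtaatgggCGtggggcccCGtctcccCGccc

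The windows held 6 CpG for *C1qtnf3*, 13 for *Cpxm2*, 7 for *Lin28a* and 7 for *Tdgf1*, beside a median of 8 and quartiles of 2 and 18 over the 20592 promoters of the RefSeq table. The letters GGAATG, the core of TEAD sites, searched on both strands, were present in the windows of *C1qtnf3* and *Cpxm2*, and in 12.1% of all promoters. The letters GGGCGG, the core of Sp1 sites, were present for *Cpxm2* and *Tdgf1* and in 39.4% of all promoters. The octamer ATGCAAAT, the core motif of Oct4, was in none of the 4 windows and in 1.52% of all promoters, and TGANTCA, the AP-1 motif, in none of the 4 and in 6.44%. TATAAA on the sense strand, 40 to 20 bases before the start, was in none of the 4 and in 2.55%. The CArG box (CCWWWWWWGG, where W is A or T) and CCAAT were in none of the 4 and in 1.34% and 35.1%. *Cpxm2* and *Tdgf1* were shown because they held a motif searched, so their matches follow in part from that choice. They are therefore not to be read against the shares of all promoters. The matches are descriptions of the letters and were not related to the expression values.

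All 4 lists of structural matrix genes held members of the fibroblast class. Of 22 collagen genes 8 were MEF-specific, of 22 elastic fibre and microfibril genes 6, of 9 measured small leucine-rich proteoglycans 5, and of 16 matricellular genes 8. Their median log2 ratios were 2.48, 1.45, 3.69 and 2.36. *Col1a1* had 26126 CPM in MEFs against 2092 and 2116 CPM in naïve P5, 776 and 752 in primed P5, 4272 and 4386 in naïve P15 and 2775 and 2532 in primed P15 cultures, with the lowest values in the primed P5 pair and the highest in the naïve P15 pair. *Col1a2*, the second chain of type I collagen, had 16045 CPM in MEFs and 699 to 3018 CPM in the pluripotent libraries. *Col3a1*, type III collagen, had 7962 CPM in MEFs and 349 to 2032 CPM and missed the requirement at 3.92-fold. The largest collagen fold over the 8 libraries was that of *Col8a2*, a short-chain collagen of basement membranes, with 383 CPM in MEFs against 1.84 to 3.01 CPM in naïve and 21.02 to 26.97 CPM in primed cultures.

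Elastic fibre assembly genes followed *Eln*. *Fbln5*, which tethers tropoelastin to microfibrils, had 1133 CPM in MEFs against 48.98 to 98.9 in naïve and 7.60 to 27.7 in primed cultures. *Mfap4*, a microfibril-associated glycoprotein, had 694 against 12.02 to 44.8 CPM. *Lox*, the crosslinking lysyl oxidase, and *Fbn1*, the fibrillin of mature microfibrils, remained under 4-fold at 3.11 and 2.97 times the highest pluripotent library. *Eln* thus had a far wider gap than *Lox* and *Fbn1*. This does not hold for the scaffold as a whole to the same degree, since the fibrillin gene *Fbn2* was MEF-specific at 24.6-fold.

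Among the small leucine-rich proteoglycans, which bind collagen fibrils, *Aspn* had 648 CPM in MEFs against 8.90 to 27.8 in naïve and 0.298 to 10.5 in primed cultures. *Ogn* had 326 against 12.3 to 36.2 and 1.49 to 6.36 CPM. Decorin (*Dcn*) and lumican (*Lum*), of the same family, went the other way in primed cultures. *Dcn* had 211 CPM in MEFs, 18.9 to 43.1 CPM in naïve and 457 to 749 CPM in primed cultures. *Lum* had 148 CPM in MEFs, 9.34 to 12.5 CPM in naïve cultures, 89.5 and 86.03 CPM at primed P5 and 299 and 323 CPM at primed P15. In primed cultures these fibroblast proteoglycans therefore exceeded, in all 4 libraries for *Dcn* and in the P15 pair for *Lum*, the level of the MEF library itself.

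Matricellular genes, whose products modulate cell contact with the matrix, included *Postn* (periostin) at 2738 CPM in MEFs against 111 to 439.8 CPM and *Ccn4* at 789.6 against 20.1 to 127 CPM. *Sparc*, a collagen-binding protein, had 7969 against 676 to 1805 CPM. *Spp1*, osteopontin, was the 1 matricellular gene on the pluripotent side, with 78.8 CPM in MEFs, 902 to 1047 CPM in naïve and 3045 to 4550 CPM in primed cultures.

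Of 22 matrix proteases and inhibitors 4 were MEF-specific and 1 was pluripotent-specific, with a median log2 ratio of 1.27. *Adamts5*, an aggrecanase, had 240.0 CPM in MEFs against 6.99 to 30.5 CPM. *Mmp3*, the stromelysin that stromal cells secrete, met the pluripotent-specific rule with 3 counts in the MEF library and 17.5 and 19.25 CPM in naïve P5, 747 and 741 in primed P5, 6.92 and 7.99 in naïve P15 and 999 and 1015 in primed P15 cultures. All 4 primed libraries lay more than 30 times above all 4 naïve libraries, and the ratio of the lowest of the 8 to MEFs was 54.3 (95% counting interval 18.6 to 263). *Timp1*, an inhibitor of matrix metalloproteases and 1 of the 30 fibroblast markers, had 123 CPM in MEFs and 124 to 274 CPM in the pluripotent cultures. Which cells in the cultures carried these transcripts was not tested.

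Of 44 mesenchymal transcription factor genes, 10 were MEF-specific and none was pluripotent-specific, and the median log2 ratio was 2.04. *Meox1* and *Meox2*, homeobox genes of somite derivatives, had 34.96 and 12.1 CPM in MEFs against at most 2.44 and 0.746 CPM in any pluripotent library. The nuclear factor I genes *Nfib* and *Nfix* had 355 CPM against 14.1 to 28.9, and 415 CPM against 40.7 to 62.7. *Twist2*, a helix-loop-helix factor of dermal fibroblasts, reached only 2.10 times the highest pluripotent library, at 26.3 CPM.

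Of 31 measured Hox genes 7 were MEF-specific (*Hoxa7*, *Hoxa9*, *Hoxa10*, *Hoxc4*, *Hoxc8*, *Hoxc9* and *Hoxc10*), 14 passed the 2-fold requirement and none was pluripotent-specific. All 7 came from the HoxA and HoxC clusters. *Hoxc8* had 60.1 CPM in MEFs against 4.27 to 11.3 CPM, *Hoxa9* 21.1 against 1.09 to 3.72 CPM and *Hoxa10* 25.4 against 1.39 to 4.71 CPM. *Hoxb9* had 60.9 CPM in MEFs and up to 22.4 and 20.2 CPM at naïve P5, a fold of 2.72.

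Of 27 PDGF, FGF and TGF-β signalling genes 4 were MEF-specific. The receptor *Pdgfrb* was 7.33-fold above the highest pluripotent library, while *Pdgfra*, the other PDGF receptor, was 1.90-fold above it, with 23.5 to 46.3 CPM in naïve and 86.2 to 105 CPM in primed cultures against 199.6 CPM in MEFs. The ligands *Tgfb3*, *Bmp4* and *Fgf18* had 430.5, 106 and 39.6 CPM in MEFs at folds of 6.18, 6.37 and 8.48. *Igf1*, a growth factor of mesenchymal cells, was the 1 MEF-specific gene of 10 in the IGF axis, with 264 CPM against 2.33 to 15.7 CPM. The binding protein genes *Igfbp3* and *Igfbp5* had 1051 and 1104 CPM in MEFs and neither passed. *Igfbp3* reached 804 and 826 CPM and *Igfbp5* 547 and 530.3 CPM in the primed P15 pair.

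Chemokine and cytokine genes were mixed. Of 19 measured, *Cxcl12*, the ligand of Cxcr4, and *Ptx3*, a soluble pattern recognition protein, were MEF-specific, with 471 against 22.1 to 79.2 CPM and 189 against 5.75 to 15.9 CPM. *Cxcl1*, a neutrophil chemokine, was pluripotent-specific with 1.23 CPM in MEFs, 6.33 to 11.98 CPM in naïve and 47.1 to 51.6 CPM in primed cultures. The median log2 ratio of the list was 0.39 against the naïve and -2.32 against the primed libraries. The direction of this list thus turned with the state it was set against.

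Of 20 contractile and SRF target genes 2 were MEF-specific and 13 passed 2-fold, with a median log2 ratio of 1.54. *Mylk*, myosin light chain kinase, had 237 CPM in MEFs against 4.16 to 19 CPM. *Acta2*, smooth muscle actin, had 4554 CPM in MEFs, 823 to 1374 CPM in naïve and 114 to 244 CPM in primed cultures, a fold of 3.31.

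Imprinted genes fell on both sides. Of 26, 5 were MEF-specific and 3 pluripotent-specific. *H19*, a maternally expressed non-coding RNA of growing embryonic tissues, had 10354 CPM in MEFs and 996 to 1564 CPM in the pluripotent libraries. *Dlk1* and *Meg3*, the oppositely imprinted pair on chromosome 12, had 1004 against 28.1 to 42.6 CPM and 1076 against 77.6 to 112 CPM. *Phlda2*, *Snrpn* and *Peg10* were pluripotent-specific. *Phlda2*, a growth-restricting placental gene, had 2 counts in MEFs against 74.1 to 79.1 CPM in naïve and 10.5 to 23.3 CPM in primed cultures. *Cdkn1c*, an imprinted inhibitor of cell cycle kinases, lay just outside the MEF requirement at 3.98-fold.

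Markers of other cell types were examined in the MEF library. Of 10 macrophage markers, 8 were MEF-specific and none was pluripotent-specific, with a median log2 ratio of 4.73, and the summed level of the list was 174 CPM in MEFs, 12.8 to 13.4 CPM in naïve and 16.8 to 31.9 CPM in primed cultures. The complement genes *C1qa*, *C1qb* and *C1qc*, made by tissue macrophages, had 33.6, 25.5 and 27.1 CPM in MEFs and at most 0.295, 0.192 and 0.448 CPM in any pluripotent library. *Csf1r*, the receptor of macrophage colony-stimulating factor, had 15.8 CPM against 0.221 to 0.998 CPM. *Adgre1*, which encodes the F4/80 antigen, had 5.61 CPM against 0 to 0.909 CPM. *Ptprc*, the CD45 antigen of leukocytes, was under 5 CPM in MEFs at 3.15 CPM and so could not pass. *Cd68*, a lysosomal glycoprotein, had 11.5 CPM in MEFs and 5.79 to 25.9 CPM in the cultures. Outside the list, and chosen after their values were seen, *Cx3cr1*, *Mrc1*, *Msr1*, *Stab1* and *Spi1* were also MEF-specific, with 23.4, 22.3, 10.6, 32.8 and 6.17 CPM in MEFs. A group of genes that define macrophages was therefore part of the MEF-specific class, and the part of macrophages among the MEFs in it was not tested.

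Of 8 endothelial markers none passed 4-fold in either direction and 1 passed 2-fold. This was *Kdr*, with 7.57 CPM in MEFs against 0.444 to 2.07 CPM, a fold of 3.66. *Pecam1*, which naïve mESCs also transcribe, had 6 counts in MEFs. Of 7 erythroid markers none was measured. Of 6 measured neural and glial markers 2 were MEF-specific, among them the neural crest and glial gene *Sox10* at 8.59 CPM, and the neuronal gene *Stmn2* was pluripotent-specific with 2.89 CPM in MEFs against 98.7 to 212 CPM. Of 4 measured adipocyte markers *Lpl*, lipoprotein lipase, was MEF-specific at 107 CPM. *Cebpa* had 15.8 CPM in MEFs against 8.52 to 13.6 CPM and *Pparg* 2.08 against at most 0.596 CPM, and neither passed. *Fabp4* went the other way in primed cultures, with 1.19 CPM in MEFs, 0.810 to 1.54 CPM in naïve and 9.35 to 15.8 CPM in primed cultures. Of 6 measured skeletal muscle and 7 cartilage markers none passed, with median log2 ratios of 2.38 and 1.27, both above that of all genes. The muscle median was 2.14 against the naïve and 2.33 against the primed libraries alone. The cartilage median fell to 0.54 and 0.03, so its value over all 8 was not kept in either state. The log2 ratio was negative only for *Acta1* (-1.84) in the first list and *Matn1* (-2.37) in the second. Of 2 measured keratinocyte markers *Perp*, a desmosomal protein, was pluripotent-specific. *Krt14* went the other way, with 2.04 CPM in MEFs against 0 to 0.958 CPM, and was under the 5 CPM required.

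Fibroblast genes were detected in every pluripotent culture, so the level of each gene was expressed as a percentage of its MEF level. Over the 363 MEF-specific genes the median was 6.64% and 6.68% in the naïve P5 pair, 8.01% and 7.92% at primed P5, 8.75% and 9.20% at naïve P15 and 9.48% and 9.87% at primed P15. The values of a pair lay close together, and both P15 groups lay above both P5 groups, while the class rule itself keeps each gene under 25%. Over the 29 fibroblast markers of at least 5 CPM in MEFs, which were not chosen by this rule, the median lay between 15.03% and 25.5%, with the lowest value in primed P5 and the highest in primed P15 cultures. Mesenchymal transcription factors ranged from 18.03% to 26.8% and Hox genes from 14.9% to 25.003%. For the macrophage markers of at least 5 CPM the median was 0 in both naïve P5 libraries and at most 3.65% in the others.

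Single genes departed widely from these medians. *Eln* reached at most 0.471% of its MEF level in any pluripotent library and *Aspn* at most 4.29%. *Ogn* was the lowest of the abundant fibroblast markers at 0.457% in 1 primed P5 library. At the other end, *Fn1*, fibronectin, lay between 45.5% and 92.2%, *Vim*, vimentin, between 39.4% and 73.6%, and *Dcn* between 8.92% and 354%. Ratios of markers of 1 cell type thus differed by orders of magnitude between genes. The lowest ratio among fibroblast markers of at least 50 CPM ranged from 0.457% in a primed P5 library to 6.61% in a naïve P15 library, a ratio set by *Ogn* or *Lum*, while *Eln*, which is not in that list, lay lower still in every library. The part of feeder RNA in these levels was not tested.

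**Figure D3:**
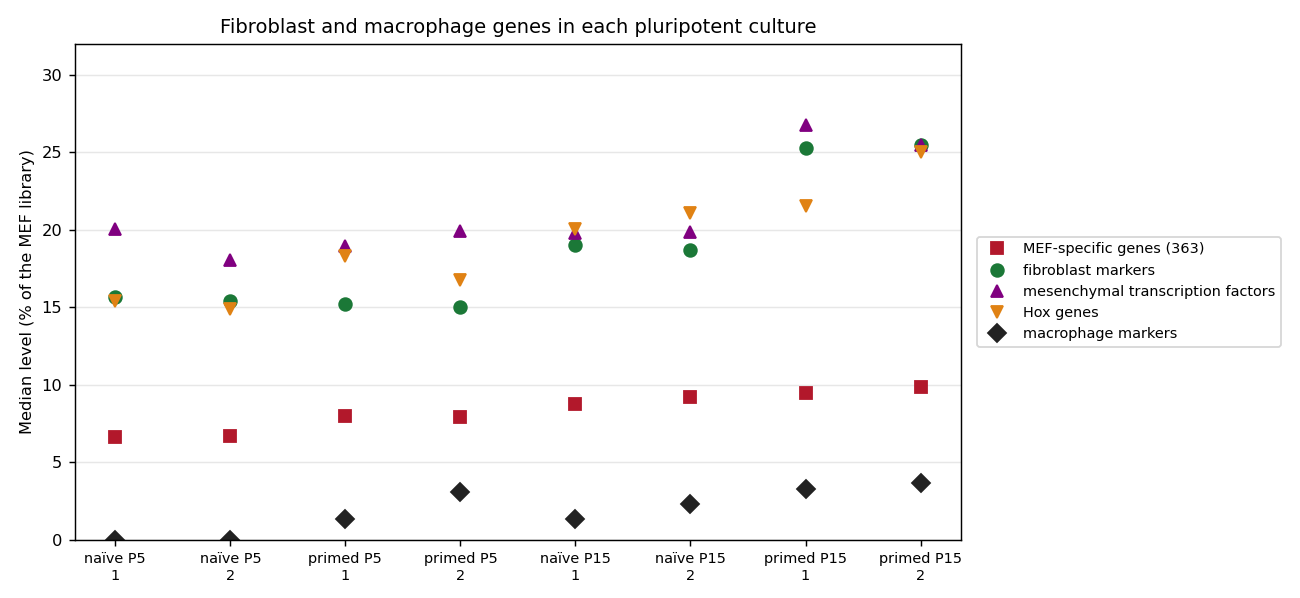
Median level, as a percentage of the single MEF library, of 5 gene groups in each of the 8 naïve and primed libraries, where each symbol is the median over the genes of a group that had at least 5 CPM in MEFs. The fibroblast markers, mesenchymal transcription factors and Hox genes lie between 14.9% and 26.8%, the MEF-specific genes between 6.64% and 9.87%, and the macrophage markers at or under 3.65%.

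On the pluripotent side, the 10 leading genes among those of at least 50 CPM in each of the 8 libraries included transcription and RNA regulators, Nodal pathway genes, an adhesion molecule and an enzyme. *Lin28a* (ENSMUSG00000050966, chr4:134003330-134018841, minus strand), an RNA-binding protein that blocks maturation of let-7 microRNAs, had 2 counts in MEFs and 379.6 and 374 CPM in naïve P5, 461 and 464 in primed P5, 433 and 413 in naïve P15 and 393 and 395 in primed P15 cultures. Its 8 values lay within a narrow range, and the ratio of the lowest to MEFs, taken on the 2 counts without the 3-count floor, was 4400 (95% counting interval 1218 to 36332). *Tdgf1* (ENSMUSG00000032494, chr9:110939603-110946158, minus strand), or Cripto, the co-receptor of Nodal, had 0 counts in MEFs and 1122 and 1084 CPM in naïve P5, 229 and 236 in primed P5, 922 and 878 in naïve P15 and 667 and 682 in primed P15 cultures, at least 1796-fold higher in every culture with MEFs at the floor. Its primed P5 values lay lowest.

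*Pou5f1* (ENSMUSG00000024406, chr17:35506018-35510772, plus strand) had 714 and 710.4 CPM in naïve P5, 211 and 211 in primed P5, 753 and 760.3 in naïve P15 and 612 and 583 in primed P15 cultures, and the ratio of the lowest library to MEFs, on 1 count without the floor, was 4956 (95% counting interval 889 to 195734). *Sall4* had 194 and 193 CPM in naïve P5, 158 and 154 in primed P5, 197 and 189 in naïve P15 and 169 and 166 in primed P15 cultures, at least 1205-fold above MEFs, and its 8 libraries lay within a narrow range. *L1td1*, an RNA-binding protein derived from a LINE-1 element, had 2 counts in MEFs and 147 to 673 CPM in the cultures. *Utf1*, a chromatin-associated factor, had 0 counts in MEFs and 343 to 364 CPM in naïve and 97.99 to 117 CPM in primed cultures. *Trh*, which encodes thyrotropin-releasing hormone, had 0 counts in MEFs and 141 to 1720 CPM in the cultures, with the primed P15 pair highest. *Lefty2*, a secreted Nodal inhibitor, *Epcam*, an epithelial adhesion molecule, and *Upp1*, uridine phosphorylase, had 1, 2 and 1 counts in MEFs and at least 82.9, 117.6 and 80.0 CPM in every culture.

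Of the 20 pluripotency genes, the 4 that did not pass were *Mybl2*, *Tet1*, *Dppa4* and *Fgf4*. *Tet1*, a 5-methylcytosine dioxygenase, lay just outside at 3.90-fold. *Fgf4*, a growth factor gene activated by Oct4 and Sox2, and *Dppa4* had under 5 CPM in part of the primed libraries, with 3.33 to 43.8 and 0.172 to 13.2 CPM. *Sox2* had 1.40 CPM in MEFs, 390.2 to 461 CPM in naïve and 144 to 165 CPM in primed cultures. *Nanog* had 1.36 CPM in MEFs, 379 to 401 CPM in naïve and 92.6 to 266 CPM in primed cultures. For both, naïve cultures lay above primed cultures and every culture lay at least 68.03-fold above MEFs.

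State markers were mostly not shared. Of 14 naïve state genes 2 were pluripotent-specific, *Tfcp2l1* and *Fbxo15*, and of 15 primed state genes 5 were, *Otx2*, *Pou3f1*, *Nodal*, *Lefty1* and *Lefty2*. *Esrrb*, an orphan nuclear receptor, had 4 counts in MEFs and 462 to 527 CPM in naïve but 4.59 and 3.52 CPM in primed P15 cultures and so did not pass. *Klf4*, a reprogramming factor, had 57.6 CPM in MEFs, 535 to 762 CPM in naïve and 46.2 to 55.8 CPM in primed cultures. *Otx2*, a homeobox gene of the epiblast, had 0 counts in MEFs and 10.4 to 25.3 CPM in naïve and 78.6 to 163 CPM in primed cultures.

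Epithelial genes formed a group of like size. Of 28 junction and keratin genes, 17 were pluripotent-specific and none was MEF-specific, with a median log2 ratio of -5.64. *Cdh1* (chr8:106603351-106670246, plus strand), E-cadherin, had 19 counts in MEFs and 424 and 425 CPM in naïve P5, 488 and 474 in primed P5, 399 and 405 in naïve P15 and 121 and 119 in primed P15 cultures, at a fold of 148 for the lowest. The primed P15 pair was the lowest and the primed P5 pair the highest. *Esrp1*, an epithelial splicing regulator, and *Cldn6*, a tight junction claudin of the early embryo, had 0 counts in MEFs and 27.8 to 79.3 and 56.4 to 208 CPM in the cultures. *Krt8*, *Krt18* and *Krt19*, the keratins of simple epithelia, had 6.89, 7.87 and 3.23 CPM in MEFs, 58.9 to 89.5, 42.6 to 62.6 and 16.3 to 21.9 CPM in naïve and 178 to 702, 112 to 454 and 58.3 to 271 CPM in primed cultures. For each of the 3, all 4 primed libraries lay above all 4 naïve libraries.

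Chromatin genes separated the cell types in single members. Of 14 DNA methylation and TET genes, *Dnmt3b*, the de novo methyltransferase of the epiblast, was the 1 pluripotent-specific member, with 3.66 CPM in MEFs, 289 to 301 CPM in naïve and 365 to 402 CPM in primed cultures. *Trim28*, which encodes Kap1, a corepressor of retrotransposons, had 411 CPM in MEFs and 658 to 1669 CPM in the cultures. *Uhrf1*, which recruits maintenance methylation, had 78.3 CPM against 231 to 413 CPM. Of 20 Polycomb genes *Cbx7*, *Epop*, *Jarid2* and *Phc1* were pluripotent-specific. *Cbx7*, a reader of H3K27 methylation, had 1.83 CPM in MEFs, 132 to 159.8 CPM in naïve and 43.5 to 69.97 CPM in primed cultures.

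Metabolic genes contributed a few members with large folds. Of 20 glycolysis genes 3 were pluripotent-specific and 10 passed 2-fold, with a median log2 ratio of -1.47. The glucose transporter genes *Slc2a3* and *Slc2a1* had 13.4 and 102 CPM in MEFs against 896 to 1639 and 616 to 1363 CPM. *Pkm*, pyruvate kinase, had 1312 CPM in MEFs and 3267 to 5049 CPM, a 2.49-fold gap. Of 20 threonine, serine and one-carbon genes 3 passed. *Gldc*, the glycine decarboxylase, had 0.851 CPM in MEFs against 183 to 214 CPM in naïve and 68.2 to 127 CPM in primed cultures, while *Psat1*, of serine synthesis, had 331 CPM in MEFs within the range of the cultures (117 to 428 CPM).

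Genes of proliferation, repair and telomeres passed the 2-fold requirement in part. Of 28 replication genes 2 passed 4-fold (*Mcm10* and *Orc1*) and 14 passed 2-fold, and of 27 G2 and M phase genes none passed 4-fold and 15 passed 2-fold, with median log2 ratios of -1.53 and -1.30. *Mcm7*, of the replicative helicase, had 82.4 CPM in MEFs and 319 to 479 CPM in the cultures. Of 37 recombinational repair genes 2 passed 4-fold and 16 passed 2-fold. *Rif1*, a regulator of replication timing and break repair, had 29.98 CPM in MEFs, 281 to 321 CPM in naïve and 127 to 185 CPM in primed cultures.

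Of 18 measured telomerase and telomere genes none passed 4-fold and 6 passed 2-fold, all 6 with the lower level in MEFs, and the median log2 ratio was -1.16. *Tert*, the catalytic subunit of telomerase, was 5.83 CPM in MEFs (137 counts) against 19.14 and 16.5 CPM in naïve P5, 16.1 and 14.4 in primed P5, 14.95 and 12.3 in naïve P15 and 11.9 and 10.6 in primed P15 cultures, so that the lowest culture was 1.82-fold above MEFs. *Dkc1*, dyskerin, the pseudouridine synthase that stabilises telomerase RNA, had 34.9 CPM in MEFs, 194 to 236 CPM in naïve and 98.6 to 136 CPM in primed cultures. The shelterin genes differed among themselves. *Terf1* and *Pot1a* had 13.9 and 8.85 CPM in MEFs, each more than 3-fold below the lowest culture, whereas *Terf2* had 33.9 CPM in MEFs and 27.9 to 33.2 CPM in the cultures.

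Of 24 measured germline genes, 1 was pluripotent-specific (*Tdrd5*), beside 2.22% of all measured genes. Of the 27 listed, 13 had 0 counts in MEFs. *Tex101*, *Asz1* and *Dpep3* of the 27 did not reach 1 CPM in any library. No share of all genes with 0 counts is given, so the count of 13 is not read further. *Dppa2* had 0 counts in MEFs, 60.1 to 104 CPM in naïve and 0.172 and 0.454 CPM in primed P15 cultures. Of 10 D-type cyclin and CDK inhibitor genes, *Cdkn2c*, an inhibitor of Cdk4 and Cdk6, was the 1 MEF-specific member at 28.8 CPM against 2.72 to 5.45 CPM. Of 20 housekeeping genes none passed 4-fold in either direction and 1 passed 2-fold, with a median log2 ratio of -0.41. *Actb*, cytoplasmic actin, had 4952 CPM in MEFs and 1967 to 2956 CPM in the cultures, and *Gapdh* 1295 and 2374 to 4267 CPM, in opposite directions.

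**Figure D4:**
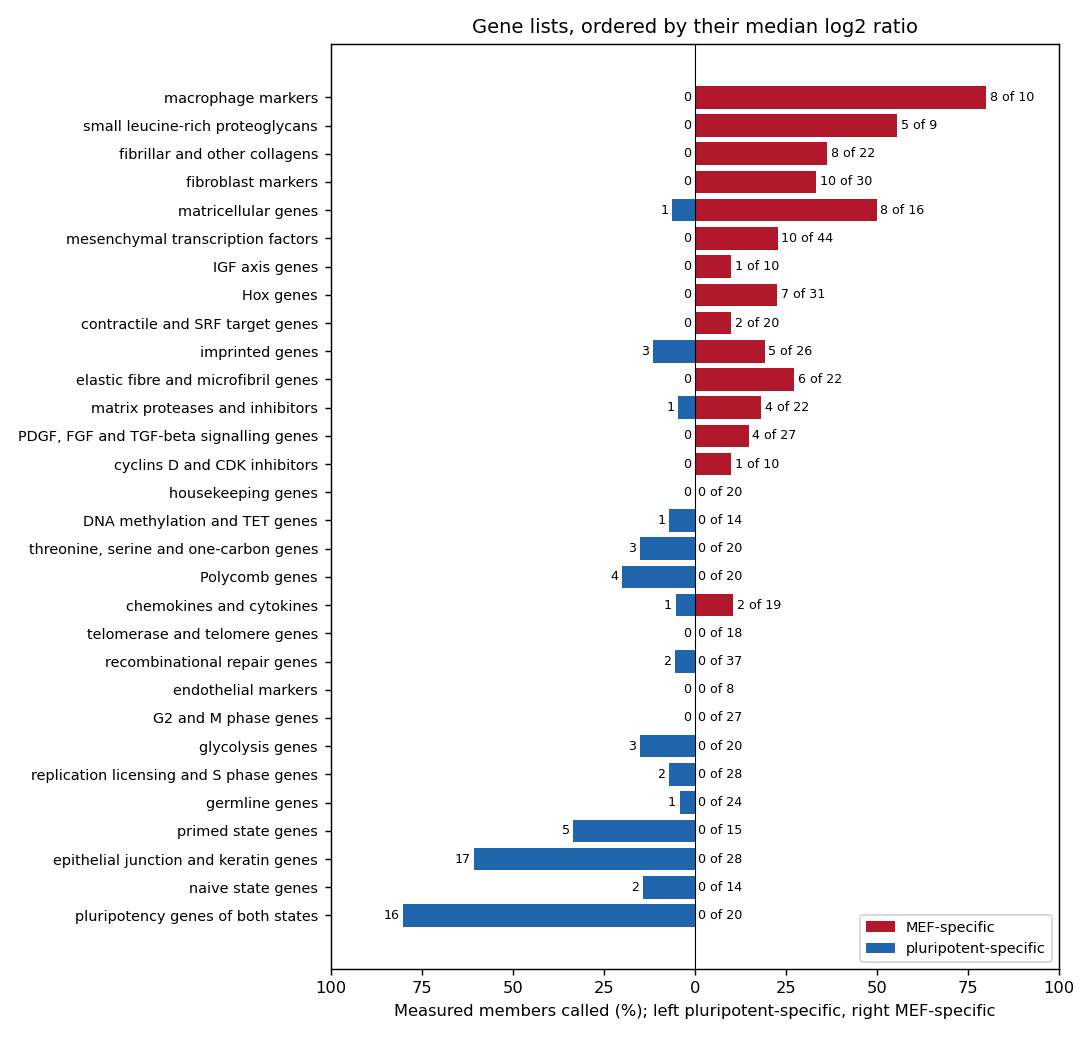
Bars give the percentage of the measured members of each gene list that were MEF-specific (right, red) or pluripotent-specific (left, blue), with the counts printed, for lists of at least 8 measured genes ordered by the median log2 ratio of MEFs to the 8 pluripotent libraries. Macrophage markers (8 of 10) stand at the top, pluripotency genes (16 of 20) and epithelial genes (17 of 28) at the bottom, and over all measured genes the shares are 2.21% and 2.22%.

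At the edge of the 4-fold requirement, values lay close together on both sides. *Itga9* and *Adamts1* were just inside the MEF class, *Itga9* at the limit and *Adamts1* at 4.04-fold, and *Adcy7* and *Cdkn1c* just outside at 3.99-fold and 3.98-fold. *Lama5* and *Ucp2* were just inside the pluripotent class at 4.01-fold and 4.08-fold, and *Ezr* and *Tet1* just outside at 3.96-fold and 3.90-fold.

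Members of both classes were then compared between primed and naïve cultures, since a gene shared by both states can still differ between them. At each passage the 2 primed and 2 naïve libraries were tested with edgeR's quasi-likelihood test, and genes were called at an adjusted p under 0.01 and a change of at least 2-fold. The classes were set on the highest or lowest of the same libraries, so the counts are descriptions. Over all genes tested, 22.3% were called at P5 (13.5% higher and 8.85% lower in primed cultures) and 23.2% at P15 (12.2% higher and 11% lower). Of the 364 pluripotent-specific genes, all of which could be tested, 48 were higher and 61 lower in primed cultures at P5 (29.9% called), and 48 were higher and 82 lower at P15 (35.7%). The share lower in primed cultures at P15 was 22.5% of the class, beside 11% of all genes tested, and members had a median log2 fold change of -0.27 beside 0.00 for all genes. Every member had at least 5 CPM in each library, whereas a tested gene needed only 10 counts in 2 of 4 libraries. The class and all genes are therefore not a like comparison, and no trait of the class is read from these shares.

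Of the 363 MEF-specific genes 314 passed the count filter at P5, of which 62 were higher and 48 lower in primed cultures (35.0%). At P15 309 passed, and 37 were higher and 37 lower (23.9%, near the 23.2% of all genes). The 49 and 54 members that could not be tested had under 10 counts in all or all but 1 of the 4 libraries, and a member that passed through 1 state only had to differ, so these counts are given without further reading.

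The members named here were picked as the strongest changes in each direction at each passage, so that some were higher and some lower follows from that choice. *Gas1*, a growth arrest gene of fibroblasts, had 428 CPM in MEFs and 11.8 and 11.5 CPM in naïve P5, 40.8 and 37.3 in primed P5, 12.7 and 12.9 in naïve P15 and 60.1 and 63 in primed P15 cultures, with a log2 fold change of 1.77 ± 0.09 (SE, edgeR adjusted p = 7.33e-17) at P5 and 2.25 ± 0.10 (adjusted p = 1.65e-21) at P15. Both primed pairs lay above both naïve pairs without overlap. *Col12a1*, a collagen of fibril surfaces, had 3711 CPM in MEFs and 344 and 332 CPM in naïve P5, 63.5 and 60.3 in primed P5, 389 and 458 in naïve P15 and 133 and 127 in primed P15 cultures, with log2 fold changes of -2.42 ± 0.04 (edgeR adjusted p = 3.97e-28) and -1.71 ± 0.07 (adjusted p = 4.76e-23). All 4 primed libraries lay below all 4 naïve libraries for *Col12a1*. *Col1a1* changed by -1.43 ± 0.03 on the log2 scale at P5 and by -0.72 ± 0.05 at P15, the latter under 2-fold. *Sema5a*, a guidance molecule, was higher in primed cultures (1.27 ± 0.11 and 1.96 ± 0.11) and *Ptn*, the growth factor pleiotrophin, lower (-1.05 ± 0.10 and -1.96 ± 0.08), with 2440 CPM in MEFs. *Xist*, the RNA of X inactivation, had 189.5 CPM in MEFs and 21.1 and 19.7 CPM in naïve P5, 40.6 and 42.7 in primed P5, 20.5 and 21.2 in naïve P15 and 15.5 and 18.1 in primed P15 cultures, and was higher only in the primed P5 pair (1.06 ± 0.08, edgeR adjusted p = 3.8e-13, and -0.32 ± 0.12 at P15, adjusted p = 0.0165).

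Among pluripotent-specific genes, *Mmp3* had the largest change between the states of the members named for this comparison, at 5.37 ± 0.05 on the log2 scale at P5 and 7.06 ± 0.08 at P15 (edgeR adjusted p = 3.08e-35 and 9.69e-39). *Krt8* was higher in primed cultures by 3.57 ± 0.04 at P5 and by 1.04 ± 0.06 at P15 on the log2 scale. *Trh* was higher in primed cultures by 0.97 ± 0.04 at P5, under 2-fold, and by 3.57 ± 0.06 at P15. *Tdgf1* was lower in primed cultures at P5 (-2.21 ± 0.04) and changed by -0.43 ± 0.05 at P15, under 2-fold. *Tfcp2l1*, a transcription factor of naïve pluripotency, had 230.3 and 231 CPM in naïve P5, 38.2 and 36.4 in primed P5, 222 and 218 in naïve P15 and 5.85 and 5.51 in primed P15 cultures against 0.851 CPM in MEFs. Its log2 fold change was -2.60 ± 0.05 at P5 and -5.28 ± 0.09 at P15. *Fbxo15*, a target of Oct4 and Sox2, had log2 fold changes of -2.48 ± 0.06 and -3.74 ± 0.10 and stood at 7.46 and 7.67 CPM in the primed P15 pair. Both genes were thus close to the 5 CPM required of every pluripotent library.

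**Figure D5:**
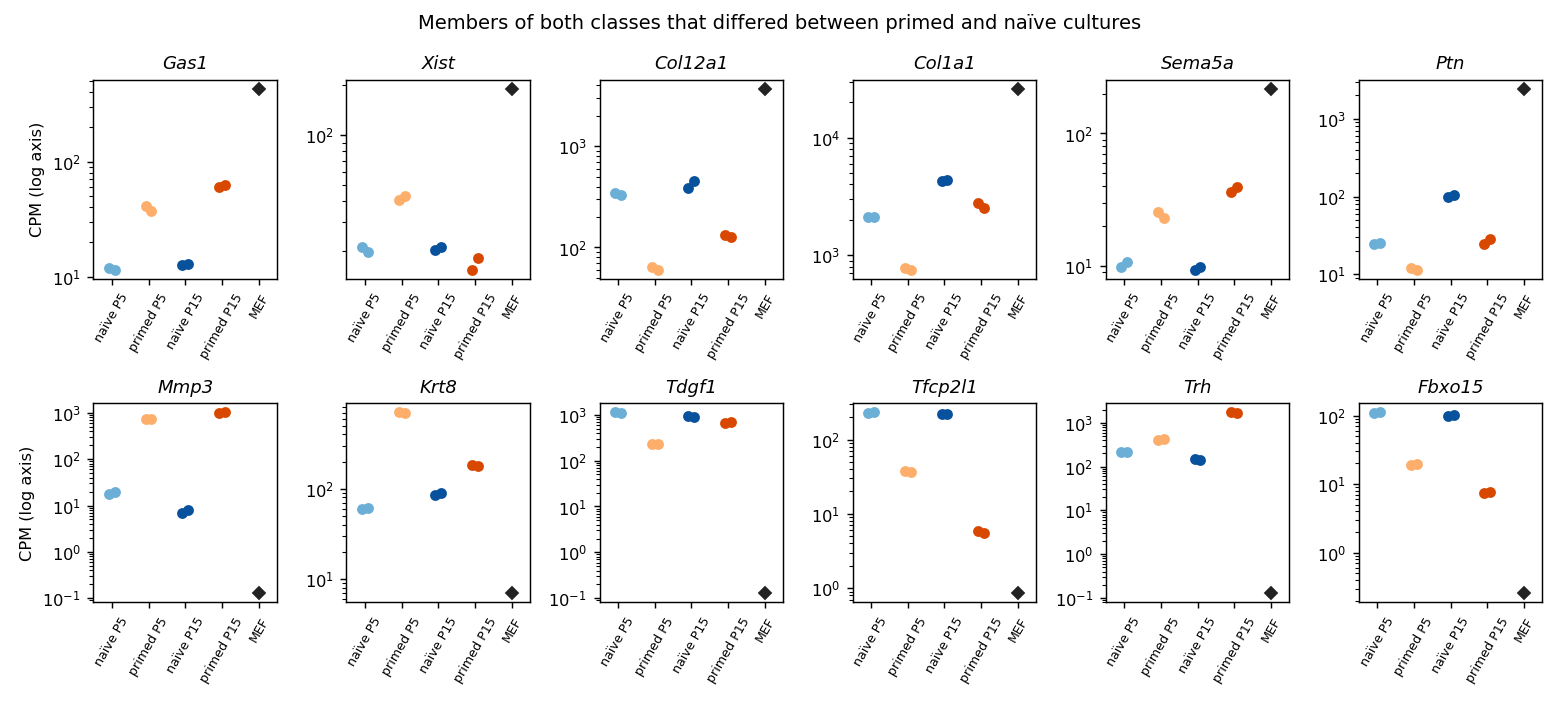
CPM on log axes of 6 MEF-specific genes (top row) and 6 pluripotent-specific genes (bottom row) named for their difference between primed and naïve cultures, with 1 circle for each library, 2 in each group, and a diamond for the single MEF library. The MEF diamond lies above all circles in the top row and below all circles in the bottom row, and the 2 circles of a group lie close together throughout.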

How the data were processed

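Poly(A) RNA libraries of 9 samples were sequenced on an Illumina platform. The authors trimmed reads with Cutadapt, used HISAT2 to align them to mm10, assigned them to Ensembl genes with featureCounts, and deposited 1 table of raw read counts. The submitters' processing notes also name DESeq2. The annotation release, strandedness and treatment of multiply mapped reads are not given in the sources used here, so counts of gene copies and of overlapping genes are uncertain.

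From these counts, CPM were computed with TMM factors over the 9 libraries in edgeR 4.0.16 (R 4.3.3). Of 54232 gene IDs, 54165 were named from the GENCODE M21 annotation of GRCm38 and 67 were not. The 92 spike-in entries had 0 counts and were left out. The log2 ratio is log2 CPM with a prior count of 2 in MEFs minus its mean over the 8 other libraries. Folds used the CPM, with a floor of 3 counts for calls, ranks and bounds against 0 counts, and for named genes with 1 to 3 counts the ratio without the floor is given with its counting interval. The MEF group has 1 library, so no test was made of it. Primed and naïve cultures were compared at each passage with edgeR's quasi-likelihood test over genes that reached 10 counts in 2 or more of the 4 libraries, with Benjamini-Hochberg adjustment over all genes tested and a call at an adjusted p under 0.01 and 2-fold. The difference between passages was tested as an interaction over the 8 libraries. The test gives no standard error. Each SE printed is the absolute log2 fold change divided by the square root of the F statistic of its test. Replicates differed by more than sampling noise, with a chi-square per gene of 2.10 to 3.28, and were counted separately.

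The genes named are the 10 of each class with the largest fold among those of at least 50 CPM, up to 4 of each list with the highest level, the defining markers, the genes nearest the 4-fold limit, and at each passage the members of each class with the strongest change in each direction between primed and naïve cultures. The choice of other named genes followed sight of their values. Not every member of the marker lists is reported here. The classes, lists and rules were chosen with earlier results of these data known. Promoters came from RefSeq on GRCm38.p6. Promoters were on hand for 68.0% and 75.1% of the protein-coding members of the classes, under the 80% needed to compare their sequences, so no such comparison was made.

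Alternatives were other normalisation, thresholds, prior count and filters, DESeq2 1.42.0, leaving out each replicate, a replicate block, and subtraction from each culture of the MEF profile at the lowest ratio found among its fibroblast markers of at least 50 CPM, which for genes such as *Eln* subtracts more than was observed.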

Additional observations from a re-analysis of the deposited data

Results flagged for a closer look

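Each of the 12 members named for their difference between primed and naïve cultures also changed in the size of that difference between the passages, by a quasi-likelihood interaction test in edgeR with Benjamini-Hochberg adjustment over all genes, with 2 libraries in each of 4 groups. The values are the log2 fold change at P15 minus that at P5. The keratin gene *Krt8* had a difference of -2.52 ± 0.07 (SE), and *Tfcp2l1* and *Fbxo15*, of the naïve network, had -2.67 ± 0.11 and -1.24 ± 0.12, so the gap between states narrowed for *Krt8* and widened for the other two. The Nodal co-receptor gene *Tdgf1* had a difference of 1.80 ± 0.06 and the hormone gene *Trh* of 2.62 ± 0.06. The stromelysin gene *Mmp3* had a difference of 1.70 ± 0.10, where both passages were higher in primed cultures.

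Among MEF-specific genes, *Col1a1* and *Col12a1* had differences of 0.73 ± 0.05 and 0.72 ± 0.08, with primed cultures lower at both passages and less so at P15. *Gas1* and *Sema5a* had 0.50 ± 0.13 and 0.71 ± 0.16, and *Ptn* -0.89 ± 0.13. *Xist* had -1.37 ± 0.14, from a call at P5 to none at P15. The adjusted p was 0.00392 for *Gas1*, the largest of the 12, and 1.8e-25 for *Trh*, the smallest. These genes were selected for a strong difference at 1 passage, so a smaller one at the other passage is in part given by the selection.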

How the results depend on the processing

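The number of genes in each class followed the limits set. For MEF-specific genes (363) it was 1105 at 2-fold, 107 at 10-fold and 662 against the mean of the 8 libraries. For pluripotent-specific genes (364) it was 882 at 2-fold, 173 at 10-fold, 613 at 1 CPM, 171 at 20 CPM and 1089 against the mean. Scaling moved the balance of the classes: library size alone gave 311 and 402, and DESeq2's size factors 385 and 353. Leaving out 1 of the 8 libraries gave 364 to 377 MEF-specific and 364 to 377 pluripotent-specific genes, and the MEF library, being alone, could not be left out. With no measured-gene filter, 1.15% of 31516 genes were in each class. Subtraction of a MEF share set by the lowest fibroblast marker of each culture gave 429 and 362, and this share is larger than the level of *Eln* allows. Of alternative log2 ratios of named genes to MEFs, 563 moved by more than the pooled replicate SD and 427 did not. For list medians, 123 moved and 87 did not. Against the naïve and the primed libraries alone, the median was -1.32 and -7.62 for primed state genes and -4.92 and -1.30 for germline genes. It was -0.09 and 0.93 for neural and glial markers.

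For differences between primed and naïve cultures, MEF-specific genes called at P15 numbered 74, and 153 with the feeder share subtracted. Without 1 replicate, MEF-specific genes called were 80 to 106 at P5 (110 with all) and 66 to 75 at P15, and pluripotent-specific genes 108 to 113 at P5 (109) and 129 to 134 at P15 (130). Replicate numbers did not pair the samples, with correlations of -0.13 at P5 and -0.17 at P15 between same-numbered deviations. The replicate block gave 108 and 109 calls at P5 and 69 and 129 at P15, and crossed pairs, chosen after seeing the data, 110, 110, 74 and 129. *Xist* at P15 turned from -0.32 to 0.55 with the feeder share subtracted. *Col1a1* at P5 (-0.86) and *Krt8* at P15 (0.97) then fell under 2-fold, as *Ptn* at P5 did with library size alone (-0.85), while *Trh* at P5 passed (1.17). The other 281 alternative values of these log2 fold changes of named members kept their direction and call. With the feeder share subtracted, 19 values kept both, 2 fell under 2-fold and 1 reversed. The main setting had 24 values, so some comparisons had no value under this subtraction and were not checked by it. The causes were not tested beyond the construction of each alternative. The single MEF library limits every ratio to MEFs: its own variation is unknown, and calls read no level under 3 counts, or 0.128 CPM.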

Other observations

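Other MEF-specific genes outside the lists, chosen after their values were seen, were *Alb*, the serum albumin gene of liver, with 37.6 CPM in MEFs and 0 to 1.02 CPM in the pluripotent libraries. *Fcrls*, *Pf4*, *C5ar1* and *C3ar1*, genes of the myeloid lineage, had 21.9, 7.66, 8.17 and 11.4 CPM in MEFs. They lay beside the macrophage markers described above, at 1 library and without a test. The histone genes *Hist1h2ao* and *Hist1h2ap* had 35.2 and 31.7 CPM in MEFs against 0.199 to 0.895 and 0 to 0.696 CPM, and are uncertain, since the members of this family share nearly identical sequence and most of their transcripts carry no poly(A) tail.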
